A study of Mus musculus with 8 samples.

Results

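Cyp26a1, the enzyme that clears retinoic acid, and 8 further genes of retinoic acid synthesis, binding and reception were described in muscle stem cells of old and young mice. The 9 genes are the rows of the deposited table with the symbols Cyp26a1, Cyp26b1, Rdh10, Dhrs3, Crabp2, Rara, Rarb, Rarg and Rxra, 9 of 24630 genes, and each had 1 row. They were chosen with the difference between old and young animals known, so this difference is given for them as a description, without a test. The study measured messenger RNA by sequencing in 8 libraries, 4 from old mice aged 22 months and 4 from young mice aged 4 months. All mice were C57BL/6 males, untreated as far as the labels say, and each library came from 1 animal. Muscle stem cells, also called satellite cells, are the resident stem cells of skeletal muscle. They were taken from limb muscle by sorting for VCAM while cells with CD45, CD31 or Sca1, which mark leukocytes, vessels and fibro-adipogenic cells, were left out, and they were not cultured.

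Retinoic acid is made from vitamin A. Retinol dehydrogenases such as Rdh10 oxidise retinol to retinal, retinal reductases such as Dhrs3 run this step backwards, and retinal dehydrogenases of the Aldh1a family make retinoic acid. The acid binds nuclear receptors (Rara, Rarb, Rarg) that pair with retinoid X receptors such as Rxra on DNA response elements, Crabp2 carries it to them in the cell, and Cyp26 enzymes hydroxylate it for removal. Cyp26a1, Rarb and Dhrs3 are themselves known to be induced by retinoic acid in many cell types.

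The windows before the start sites of Cyp26a1 and Rarb are shown because both hold a direct repeat with a 5-base spacer, the classical retinoic acid response element, while Cyp26a1 was higher in all old libraries than in any young one and the ages overlapped for Rarb. Each is printed 5′ to 3′ on the strand of its gene, as the 250 bases before the RefSeq start site on GRCm38.p6. The capitals mark both half-sites of the repeat. The Cyp26a1 window is at chr19:37697558-37697807 on the plus strand and the Rarb window at chr14:16575477-16575726 on the minus strand.
Cyp26a1: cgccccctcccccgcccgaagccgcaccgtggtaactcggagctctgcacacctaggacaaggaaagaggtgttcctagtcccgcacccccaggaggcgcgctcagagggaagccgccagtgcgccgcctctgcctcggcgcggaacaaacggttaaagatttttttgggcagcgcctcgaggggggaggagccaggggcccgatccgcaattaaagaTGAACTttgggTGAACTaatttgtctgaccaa
Rarb: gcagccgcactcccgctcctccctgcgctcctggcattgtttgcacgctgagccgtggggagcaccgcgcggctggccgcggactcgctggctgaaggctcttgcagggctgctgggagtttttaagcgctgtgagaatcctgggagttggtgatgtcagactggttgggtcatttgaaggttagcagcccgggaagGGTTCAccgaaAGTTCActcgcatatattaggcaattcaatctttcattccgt
The repeat was searched on both strands as 2 half-sites in the same direction with 5 bases of any kind between them, where a half-site is AGGTCA or one of the variants written AGTTCA, or written GGTTCA, or written GGGTCA. In Cyp26a1 it lies from position -32 to -16 relative to the start site and reads on the minus strand. In Rarb it lies from -53 to -37 on the strand of the gene. Read along its own strand, each repeat is as follows.
Cyp26a1 repeat: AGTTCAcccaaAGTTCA
Rarb repeat: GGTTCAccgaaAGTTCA
The repeats share the second half-site and differ in the first. In windows from 250 bases before to 50 bases after a start site, 32 of 32817 (0.0975%) held such a repeat, in 31 genes. Windows were listed for 7 of the 9 genes (Cyp26a1, Cyp26b1, Dhrs3, Rara, Rarb, Rarg and Rxra), and 2 of them held the repeat. With a spacer of 2 bases or of 1 base, 0.268% and 0.222% of all windows had a match, and none of the 7 genes did. A match is a description of these letters, not evidence of binding. Blvrb, which encodes biliverdin reductase B, was the one other gene with such a window that was abundant enough to be tested, and it is named because the count was small, after its values were seen. Its log2 fold change was -0.18 ± 0.12 (SE), and it did not pass (limma, adjusted p = 0.282). As deposited it was 0.44 and passed (limma, adjusted p = 0.0251), but there 68.1% of all tested genes were higher and their median was 0.64.

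The libraries differed in depth along with age. Reads in genes, recovered from the deposited values, numbered 20.1 to 24.9 M reads (mega-reads) in the old libraries and 1.91 to 6.56 M in the young, so that depth and age cannot be told apart. RPKM is the number of reads per kilobase of gene, scaled to the depth of the library. The library sizes behind the deposited RPKM were 0.678 to 0.849 times the reads in old and 1.14 to 1.64 times the reads in young libraries. Values here are therefore RPKM on library totals, unless called deposited. The median log2 fold change of the 5703 genes with a mean of at least 5 deposited RPKM, which were tested with limma on log2(RPKM + 1), was -0.01 on library totals and 0.64 as deposited. With a filter of 1 RPKM the medians were -0.19 and 0.36. Over all genes with a read they were -0.38 and -0.14, so there the deposited scale lay nearer to 0. Olfactory and vomeronasal receptor genes (1414 genes), most of which muscle is not known to use, averaged 0.0163 to 0.0360 RPKM in old libraries. In young libraries they averaged 0.202 to 0.982 RPKM, so young values near 1 RPKM lie close to this level. Their 95th percentile was 0.0466 to 0.137 RPKM in old and 0.508 to 3.65 RPKM in young libraries. Young values of a few RPKM can therefore lie within their spread. Among all tested genes 701 (12.3%) were higher in old animals and 714 (12.5%) were lower (limma, Benjamini-Hochberg adjusted p under 0.05). All 10 markers of muscle stem cells were abundant enough to be tested. Myod1 and the sorting marker Vcam1 rose (2 genes), while Pax7, Calcr, Cdh15 and Chodl fell (4 genes, limma). Of these 4, Calcr alone also fell on the deposited scale (-0.85, limma, adjusted p = 0.00195). The sum of the 10 was 10600 to 14000 CPM (reads of a gene scaled to an equal library total) in old libraries. In young libraries it was 10200 to 13300 CPM, and Sdc4 and Vcam1 held the most reads of this sum at both ages.

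Cyp26a1 (chromosome 19, 37697798 to 37701536, plus strand, 6 exons) was the most abundant of the 9 transcripts in old cells and stood about level with Dhrs3 in young cells. It read 121, 71.9, 101 and 114 RPKM in old libraries 1 to 4, against 16.1, 13.6, 3.36 and 8.72 RPKM in young libraries 1 to 4. Every old library lay above every young one. Old animals averaged 102 ± 21.6 RPKM and young animals 10.4 ± 5.63 RPKM (SD, n = 4 each), a ratio of 9.77. In bulk samples, fewer cells that hold a transcript and less of it per cell cannot be told apart. Behind the values stood 3171 to 4305 reads per old library and 39 to 88 reads per young library. The exact Poisson interval (95%) of old library 2, the lowest of its group, was 69.5 to 74.5 RPKM, and that of young library 1, the highest of its group, was 12.7 to 20.1 RPKM. The lowest young library, number 3, had an interval of 2.39 to 4.59 RPKM, apart from those of the other young libraries. These intervals cover counting error only, since amplified reads are not independent molecules.

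The log2 fold change of Cyp26a1 was 3.32 ± 0.36 on library totals and 3.97 ± 0.27 as deposited (SE), where old animals averaged 128 ± 17.8 RPKM, young animals 7.99 ± 4.17 RPKM (SD, n = 4 each), and the ratio was 16.1. It had the largest fold change of the 5703 tested genes on both scales, rank 1, which is the value it was chosen for. By mean level it ranked 472 of 24630 genes in old and 3669 in young animals. Of the tested genes, 786 (13.8%) had all old libraries above all young ones and 761 (13.3%) all below. The young libraries with the fewest reads, 1 and 2, had the highest young values, and without them the log2 fold change was 3.96. With reads thinned to 1.91 M in every library it was 3.40, and with the mean level of the silent receptor genes taken off each library it was 3.38. The sum of tenocyte markers was also higher in every old library than in any young one. It was 5240, 1730, 2540 and 3940 CPM in old libraries 1 to 4 and 1010, 1010, 932 and 652 CPM in young libraries 1 to 4. Young library 4 was thus lowest for the tenocyte sum, and young library 3 for Cyp26a1. Of the 7 genes, 6 rose (limma), beside 12.3% higher of all tested genes, and the list was chosen with earlier results of these data known. The remaining one, the defining tenocyte factor Scx, was too low to be tested, with a mean of 0.234 RPKM in old animals against 0.433 RPKM in young ones, and the young mean lay within the range of the silent receptor genes. Old library 2 was lowest in its group for Cyp26a1 and the tenocyte sum, but also for each of the other retinoic acid genes described here. It was lowest too for most other marker sums, such as fibro-adipogenic (3980 CPM), endothelial (97.3 CPM) and muscle fibre (104 CPM), though not leukocytes. Its muscle stem cell sum was the highest of the old libraries (14000 CPM). The part of the tenocyte markers in the Cyp26a1 values was not tested.

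**Figure D1:**
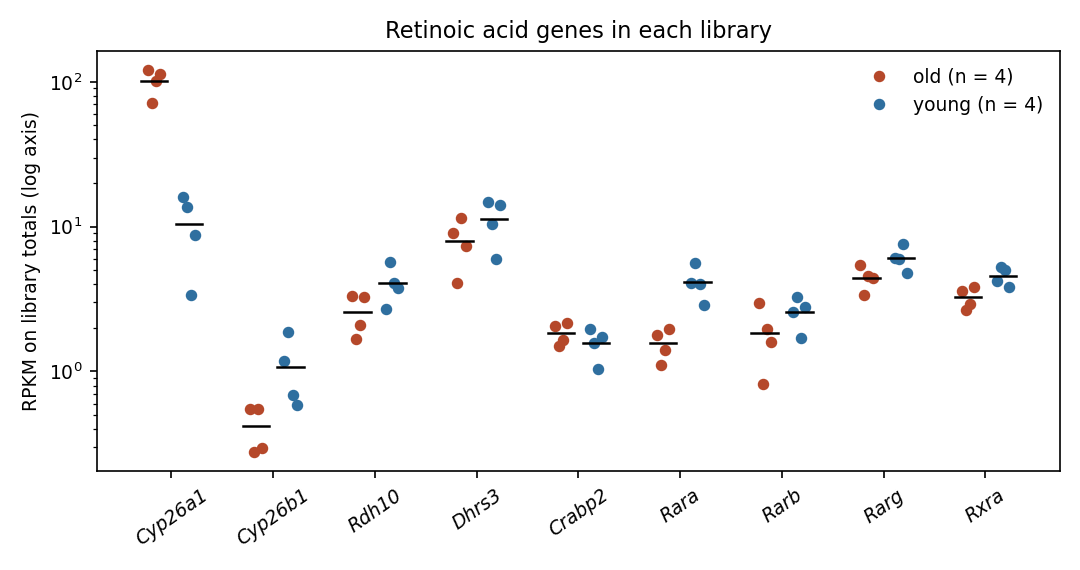
RPKM on library totals (log axis) of the 9 genes in each of the 4 old (left of each pair) and 4 young libraries, with black bars at the group means. Cyp26a1 lies at 71.9 to 121 RPKM in old libraries and 3.36 to 16.1 RPKM in young, while no other gene exceeds 14.8 RPKM in any library.

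Cyp26b1, the second retinoic acid hydroxylase of the family (chromosome 6, 84571414 to 84593908, minus strand), was the least abundant of the 9 in both groups. It had 0.549, 0.278, 0.547 and 0.296 RPKM in old libraries 1 to 4, against 1.18, 1.86, 0.684 and 0.591 RPKM in young libraries. All old values were below all young ones on library totals, and the groups overlapped on the deposited scale. With the mean level of silent receptor genes taken off, it had 0.391 ± 0.152 RPKM in old animals against 0.591 ± 0.292 RPKM in young ones (SD, n = 4 each), and the groups overlapped. Cyp26c1, the third member of the family and the neighbour of Cyp26a1 on chromosome 19, had 0.485 ± 0.0771 RPKM in old animals against 0.669 ± 0.279 RPKM in young ones from 75 and 18 reads in all, and was too low to be tested. Cyp26a1 was thus 185 to 383 times as abundant as Cyp26b1 within an old library and 4.91 to 14.8 times within a young one. Such ratios of 2 genes in the same library do not depend on the scaling of libraries.

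Rdh10 (chromosome 1, 16105774 to 16133734, plus strand), the dehydrogenase that makes retinal in embryonic tissue, had 3.31, 1.67, 2.11 and 3.29 RPKM in old libraries, against 2.68, 5.66, 4.11 and 3.76 RPKM in young libraries. The groups overlapped, and young library 1 lay within the old range. The log2 fold change was -0.49 ± 0.22 on library totals and 0.04 ± 0.19 as deposited (SE). Dhrs3 (chromosome 4, 144892827 to 144928209, plus strand), which reduces retinal to retinol, had 9.06, 4.08, 11.4 and 7.39 RPKM in old libraries, against 14.8, 10.4, 5.99 and 14.1 RPKM in young libraries. Its values spread widely within each age and overlapped between them. The log2 fold change of Dhrs3 was -0.46 ± 0.30 on library totals and 0.16 ± 0.24 as deposited. Within a library Cyp26a1 was 8.91 to 17.6 times as abundant as Dhrs3 in old animals and 0.560 to 1.31 times in young animals, so it exceeded Dhrs3 in 4 of 4 old and 2 of 4 young libraries.

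Crabp2 (chromosome 3, 87948666 to 87953376, plus strand), the carrier that delivers retinoic acid to its receptors, had 2.07, 1.49, 1.65 and 2.15 RPKM in old libraries, against 1.97, 1.58, 1.04 and 1.73 RPKM in young libraries. The groups overlapped on library totals, with a log2 fold change of 0.15 ± 0.18 (SE). As deposited, the old libraries had 1.98 to 2.70 RPKM and all lay above the young, which had 0.914 to 1.60 RPKM (log2 fold change 0.58 ± 0.16). Only 4 to 13 reads per young library stood behind these values. Crabp2 was the one gene beside Cyp26a1 with a higher mean in old animals on library totals.

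Rara (chromosome 11, 98927818 to 98974942, plus strand), the most widely expressed retinoic acid receptor, had 1.79, 1.11, 1.40 and 1.95 RPKM in old libraries, against 4.08, 5.63, 4.02 and 2.86 RPKM in young libraries. All old values were below all young ones on both scales. The log2 fold change was -0.99 ± 0.20 on library totals and -0.50 ± 0.16 as deposited, and the ratio of the means was 0.377 and 0.616 on these scales. With the level of silent receptor genes taken off the ratio was 0.419, and the groups did not overlap. The ratio of Rara to Rxra within a library was 0.414 to 0.509 in old and 0.747 to 1.07 in young animals.

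Rarb (chromosome 14, 16430839 to 16819156, minus strand), a receptor that retinoic acid induces through the repeat shown above in several cell types, had 2.96, 0.822, 1.97 and 1.60 RPKM in old libraries, against 2.57, 3.28, 1.71 and 2.78 RPKM in young libraries. The groups overlapped on both scales, with log2 fold changes of -0.37 ± 0.25 on library totals and 0.09 ± 0.22 as deposited. Annotated exons of Rarb share 1793 bases with Top2b on the opposite strand. As the kit keeps no strand, reads of these bases cannot be told apart between both genes, and the length behind the Rarb values (3034 bases) is shorter than its merged exons (5265 bases). Cyp26a1, with the same kind of repeat before its start, was 40.9 to 87.5 times as abundant as Rarb within an old library and 1.96 to 6.27 times within a young one.

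Rarg (chromosome 15, 102234938 to 102257517, minus strand), the receptor gamma, had 5.43, 3.37, 4.57 and 4.42 RPKM in old libraries, against 6.05, 5.98, 7.54 and 4.75 RPKM in young libraries. Old library 1 lay above the lowest young library, so the groups overlapped. Its log2 fold change was -0.38 ± 0.17 on library totals and 0.20 ± 0.19 as deposited. Rxra (chromosome 2, 27676440 to 27762957, plus strand), the shared partner of these receptors, had 3.62, 2.67, 2.92 and 3.83 RPKM in old libraries, against 4.21, 5.27, 5.05 and 3.83 RPKM in young libraries. The highest old value of Rxra lay just under the lowest young one on library totals, with 3.83 RPKM each after rounding, and the groups overlapped on the deposited scale. Its log2 fold change was -0.39 ± 0.15 on library totals and 0.16 ± 0.15 as deposited. Of the summed RPKM of the 3 retinoic acid receptors, Rara made up 20.1% ± 3.29 in old and 31.9% ± 4.35 in young libraries, and Rarg 57.5% ± 4.40 in old and 47.6% ± 6.90 in young libraries (SD, n = 4 each).

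**Figure D2:**
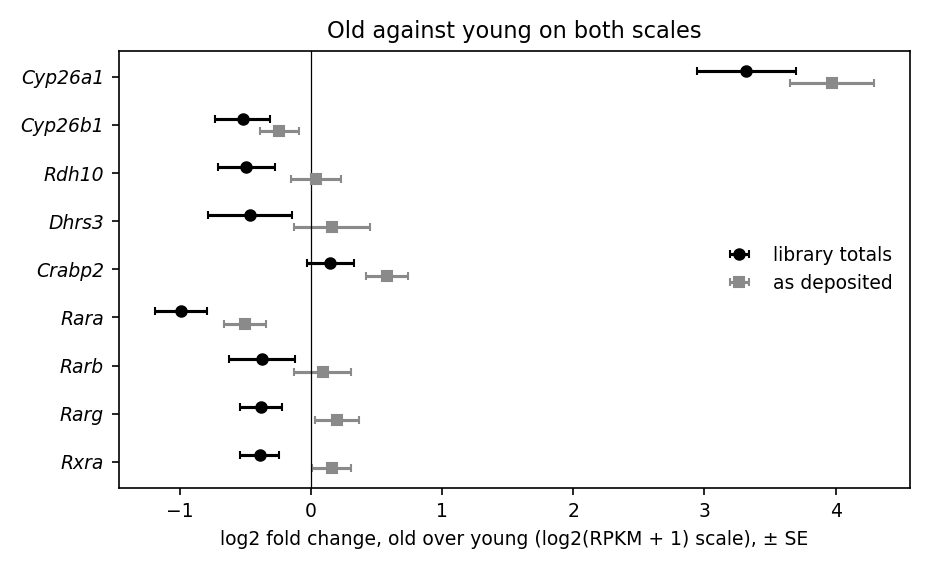
Log2 fold change, old over young, of the 9 genes on log2(RPKM + 1), with the standard error, on library totals (black circles) and as deposited (grey squares), both fitted over all genes with a read. Cyp26a1 lies at 3.32 and 3.97, Rara is below 0 on both scales with -0.99 and -0.50, and 5 genes change sign between the scales.

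In old animals Cyp26a1 was followed by Dhrs3 (7.98 ± 3.07 RPKM), Rarg (4.45 ± 0.847), Rxra (3.26 ± 0.551), Rdh10 (2.60 ± 0.832), Crabp2 (1.84 ± 0.318), Rarb (1.84 ± 0.886), Rara (1.56 ± 0.381) and Cyp26b1 (0.418 ± 0.151 RPKM, SD, n = 4). Only the first and the last of the old order stood clear of their neighbours; the ranges of all other neighbours overlapped. In young animals the order was Dhrs3 (11.3 ± 4.06 RPKM), Cyp26a1 (10.4 ± 5.63), Rarg (6.08 ± 1.14), Rxra (4.59 ± 0.682), Rara (4.15 ± 1.14), Rdh10 (4.05 ± 1.23), Rarb (2.58 ± 0.654), Crabp2 (1.58 ± 0.393) and Cyp26b1 (1.08 ± 0.580 RPKM, SD, n = 4), and the ranges of all neighbours overlapped. Rara stood between Rarb and Cyp26b1 in old animals and between Rxra and Rdh10 in young animals. Cyp26a1 made up 79.2% to 82.3% of the summed RPKM of the 9 genes in old libraries and 10.0% to 30.0% in young libraries. On library totals the other 8 genes together had 24.0 ± 5.86 RPKM in old animals against 35.4 ± 4.15 RPKM in young ones (SD, n = 4 each). As deposited, 5 of these 8 had a log2 fold change of the opposite sign, so this difference holds for library totals only. Silent receptor genes averaged 0.027 RPKM per gene in old and 0.486 RPKM in young libraries, and this level was not taken off the sums.

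**Figure D3:**
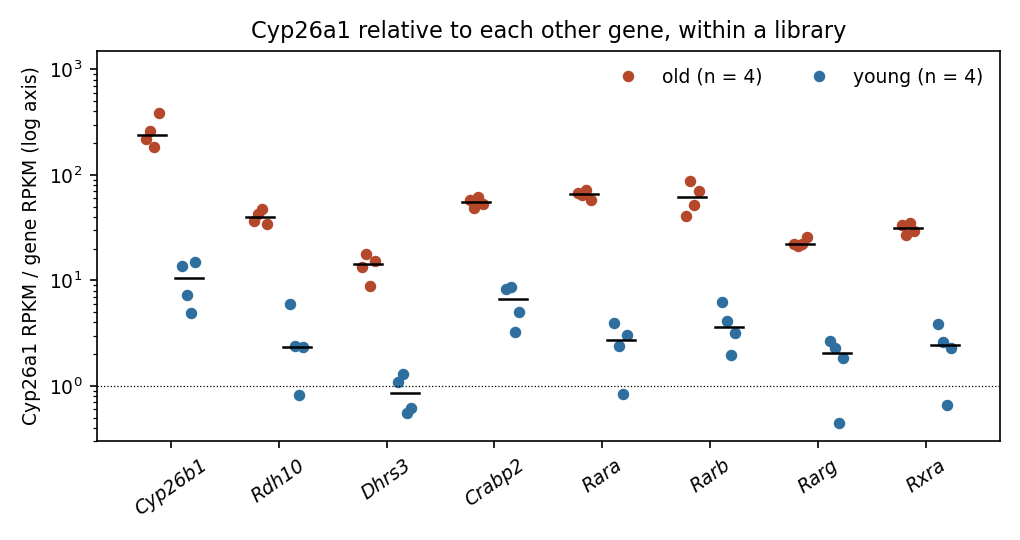
RPKM of Cyp26a1 divided by the RPKM of each other gene in the same library (log axis), for 4 old (left of each pair) and 4 young libraries, with bars at the medians and a dotted line at a ratio of 1. The old medians run from 14.4 for Dhrs3 to 239 for Cyp26b1, against 0.852 and 10.5 in young libraries. All 8 ratios share Cyp26a1, which was chosen for its difference between the ages. That old and young ratios do not overlap is therefore no result about the other genes.

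Of the 9 genes, 3 had a mean of at least 5 deposited RPKM (Cyp26a1, Dhrs3 and Rarg), and 8 had at least 1. Cyp26b1 was below both. No count of calls is given for them, as they were chosen on this contrast.

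Beyond these 9, the retinoid list held 74 genes of retinol transport, oxidation, retinoic acid synthesis, binding, reception and response, of which all were in the table and 20 were abundant enough to be tested. On library totals 2 rose, 4 fell and 14 did not pass, beside 12.3% higher and 12.5% lower of all tested genes, with a median log2 fold change of -0.05 against -0.01 for all tested genes. On the deposited scale, where the median of all tested genes was 0.64, 13 were higher and 0 lower, beside 68.1% and 1.12% of all tested genes. With a filter of 1 RPKM, 38 were tested, 3 rose, 6 fell and 29 did not pass, beside 7.11% higher and 20.5% lower of the 11096 genes tested, with a median of -0.15 against -0.19 for all genes.

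Among retinol and retinal oxidoreductases, Rdh5, a dehydrogenase of cis-retinols known from the eye, had 4.88, 3.67, 4.26 and 4.29 RPKM in old libraries, against 7.80, 5.96, 7.60 and 7.63 RPKM in young libraries. The groups did not overlap, and Rdh5 fell by 0.64 ± 0.14 in log2 units (adjusted p = 0.00898, limma). Adh5, the class of alcohol dehydrogenase that also clears formaldehyde, had 7.92 ± 0.895 RPKM in old animals against 12.9 ± 1.39 RPKM in young ones (SD, n = 4 each) and fell by 0.64 ± 0.12 (adjusted p = 0.00476, limma). On the deposited scale their log2 fold changes were -0.06 and -0.01, and neither passed (limma, adjusted p = 0.780 and 0.952). Adh1, which oxidises retinol, and Dhrs4 did not pass, with log2 fold changes of -0.04 ± 0.18 and -0.29 ± 0.13. With the filter of 1 RPKM Rdh13 also rose (0.48 ± 0.14, adjusted p = 0.0290, limma), and the storage genes Lipe, a lipase, and Rbp7, a cellular retinol-binding protein, fell by 0.94 ± 0.21 and 0.52 ± 0.16. As deposited, Rdh13 was at 1.04 ± 0.18, Lipe at -0.47 ± 0.22 and Rbp7 at 0.04 ± 0.18, and the ages overlapped for Lipe and Rbp7.

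Of the enzymes that make retinoic acid, Aldh1a1 was the most abundant, with 16.7, 17.4, 17.7 and 16.3 RPKM in old libraries, against 17.9, 18.1, 24.0 and 25.3 RPKM in young libraries. The difference of -0.29 ± 0.13 in log2 units did not pass (limma, adjusted p = 0.132). Aldh1a2, the main embryonic enzyme of this step, had 0.714 ± 0.291 RPKM in old animals against 1.69 ± 1.08 RPKM in young ones, and Aldh1a3 had 0.487 ± 0.209 and 0.803 ± 0.393 RPKM in old and young animals (SD, n = 4 each). Aldh8a1, which acts on 9-cis-retinal, had 0.196 ± 0.0229 RPKM in old animals against 1.01 ± 0.786 RPKM in young ones. The binding proteins Crabp1 (0.473 ± 0.370 RPKM in old animals against 0.641 ± 0.175 in young ones) and Fabp5 (0.455 ± 0.119 in old and 1.67 ± 0.879 RPKM in young animals) were likewise too low to be tested. The young means of Aldh1a2, Aldh1a3, Aldh8a1, Crabp1 and Fabp5 lay within 0.508 to 3.65 RPKM. This is the span of the 95th percentile of the silent receptor genes in young libraries. Among the receptors, Rxrb, the second retinoid X receptor, had 3.89 ± 1.16 RPKM in old animals against 3.95 ± 1.15 RPKM in young ones, and Ppard, which can also bind retinoic acid, 2.41 ± 0.619 and 2.78 ± 1.00 RPKM in old and young animals. Rxrg, the retinoid X receptor of muscle and brain, had 0.922 ± 0.220 RPKM in old animals against 1.13 ± 0.186 RPKM in young ones. With the filter of 1 RPKM, none of these 3 receptors passed (limma, adjusted p = 0.958, 0.672 and 0.574 for Rxrb, Ppard and Rxrg).

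Among co-regulators of the receptors, the coactivator Ncoa1 had 13.1, 12.0, 12.0 and 13.1 RPKM in old libraries, against 25.0, 26.8, 23.6 and 24.2 RPKM in young libraries. Its values were tight within each age, and Ncoa1 fell by 0.93 ± 0.10 on library totals (limma, adjusted p = 0.000321). As deposited, its values differed by -0.28 on the log2 scale (adjusted p = 0.171, limma). The related coactivator Ncoa3 had 11.3 ± 1.19 RPKM in old animals against 8.47 ± 0.823 RPKM in young ones (SD, n = 4 each) and rose by 0.37 ± 0.12, just past the threshold (limma, adjusted p = 0.0454). Leaving out any one of old 1, 3 and 4 and young 1, 3 and 4 ended this call, with adjusted p-values of 0.0834 to 0.114 (limma). The corepressor Ncor1 (-0.06 ± 0.13), the deacetylase Hdac3 (-0.03 ± 0.11) and the acetyltransferase Crebbp (-0.03 ± 0.11) did not pass.

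Among textbook retinoic acid targets, Gprc5a, a membrane receptor first known as a retinoic acid-induced gene, had 102, 95.5, 89.9 and 73.8 RPKM in old libraries, against 60.2, 55.0, 46.6 and 72.9 RPKM in young libraries. Old library 4 and young library 4 lay next to each other, and Gprc5a rose by 0.62 ± 0.15 in log2 units (adjusted p = 0.0140, limma). Without young libraries 1 and 2 it was 0.61 and did not pass (adjusted p = 0.0684, limma). The repressor Bhlhe40 had 82.6 ± 22.7 RPKM in old animals against 127 ± 16.5 RPKM in young ones (SD, n = 4 each) and fell by 0.66 ± 0.20 (limma, adjusted p = 0.0336). On the deposited scale it was 0.03 (adjusted p = 0.913, limma), and leaving out any one of old 2 and 4 and young 1, 3 and 4 also ended the call, with adjusted p-values of 0.0568 to 0.0927. Tgm2 (0.16 ± 0.22), Rarres2 (-0.02 ± 0.14), Zfp703 (0.48 ± 0.19) and Ets1 (0.29 ± 0.11) did not pass. The Hox targets were too low to be tested; Hoxa5, the highest of them in old animals, had 0.636 ± 0.154 RPKM in old animals against 1.03 ± 0.157 RPKM in young ones. Cdx1 had 0 reads in the 4 old libraries, against 13 reads in the 4 young libraries. Its young mean of 0.465 RPKM lay at the level of the silent receptor genes, which averaged 0.486 RPKM in young libraries.

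**Figure D4:**
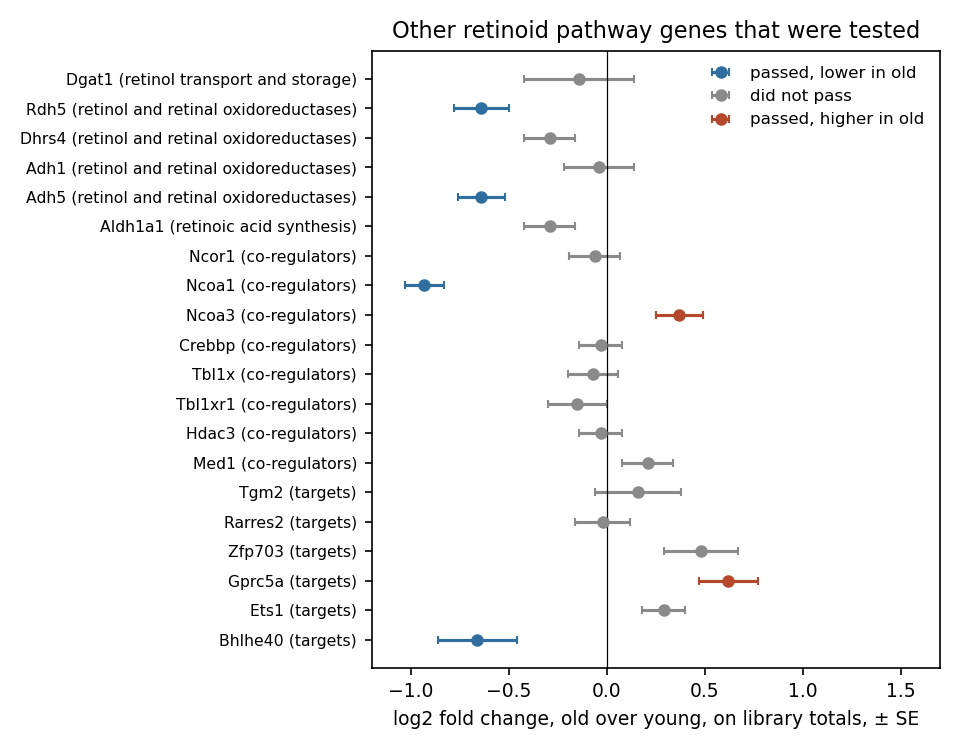
Log2 fold change, old over young, on library totals with the standard error for the 20 tested pathway genes outside the 9, with the role of each in brackets. Blue marks the 4 that fell, red the 2 that rose and grey the 14 that did not pass, and all 20 lie between -0.93 and 0.62, far from the 3.32 of Cyp26a1.

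Of 12 genes of the table that start within 500 kb of Cyp26a1 on chromosome 19, 3 were tested, too few to set against the 12.3% higher and 12.5% lower of all tested genes. On library totals 0 of them rose and 2 fell. Ide, an insulin-degrading protease that starts 360 kb before it, fell by 1.12 ± 0.18 (limma, adjusted p = 0.00199), and Exoc6, a subunit of the exocyst that starts 147 kb before it, fell by 0.74 ± 0.19 (adjusted p = 0.0180, limma). March5, a ubiquitin ligase of mitochondria, did not pass (0.35 ± 0.18). As deposited, Ide was still lower with -0.50 (limma, adjusted p = 0.0351), Exoc6 did not pass with -0.16 (adjusted p = 0.483) and March5 was higher with 0.98 (adjusted p = 0.000138). Cyp26c1, at 12.2 kb, and the retinol carrier Rbp4, at 427 kb, were too low to be tested.

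The genes whose profile was most like that of Cyp26a1 were found by Pearson correlation of log2(RPKM + 1) on library totals over the 8 libraries, as a description. The 10 highest had r of 0.960 to 0.983, and 123 genes had 0.9 or more. The libraries fall into 2 ages that also differ in depth, and r includes the step between them. The highest was Nedd4l, a ubiquitin ligase of ion channels, with 49.6 ± 4.39 RPKM in old animals against 27.6 ± 3.62 RPKM in young ones (SD, n = 4 each) and r = 0.983. It was followed by Gapvd1, Lrrfip1, Mrpl17, Pprc1, Daxx, Myo1d, Simc1, Slco4a1 and Atp9b. Of deviations from the age means, which leave the step out, r was 0.54 (Slco4a1) to 0.85 (Gapvd1). As the 10 were picked by r over the same 8 libraries, which includes these deviations, such values follow in part from the choice. Slco4a1, an organic anion transporter, had the largest change of the 10, with 8.57 ± 1.34 RPKM in old animals against 2.21 ± 0.429 RPKM in young ones, a log2 fold change of 1.57 ± 0.17 (SE). Next came the myosin Myo1d with 1.35 ± 0.18. No test is given for these, as a profile like that of Cyp26a1 implies a difference between the ages. None of the 10 is a gene of the retinoid list, but only 20 of the 5703 genes searched were on it, too few for this to tell anything.

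**Figure D5:**
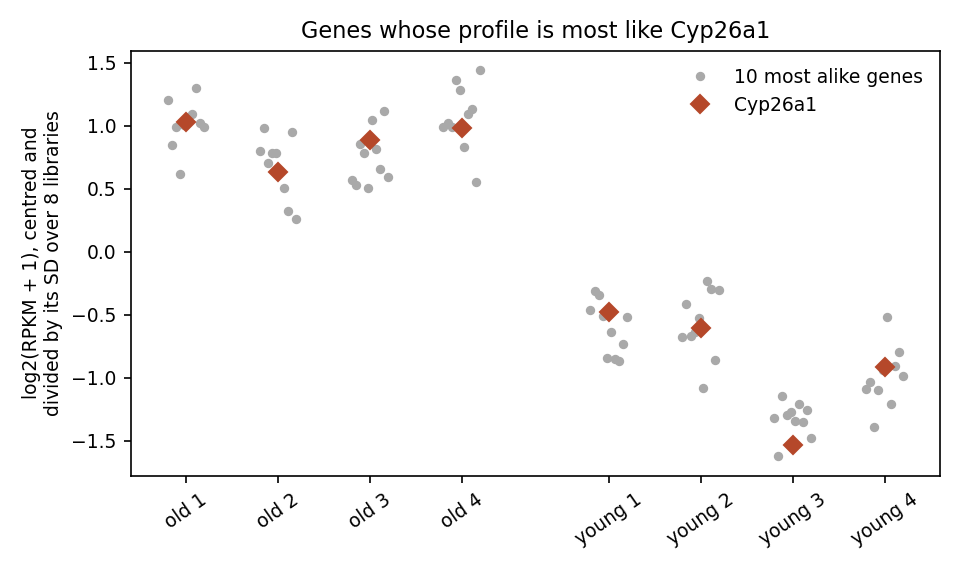
Log2(RPKM + 1) on library totals in each library, centred and divided by its SD over the 8 libraries, for Cyp26a1 (red diamonds) and the 10 genes with the highest correlation with it (grey points). Young library 3 is the lowest for Cyp26a1, and the old libraries lie above the young for all 11 profiles.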

How the data were processed

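The deposited table holds RPKM, which the authors made per library with Trim Galore, STAR, featureCounts, Subread and edgeR on the builds mm10 and GRCm38, per the submitters' processing notes. No version is stated there. Per the labels' protocols, 10 ng of RNA was primed with oligo(dT) (SMARTer) and sequenced in 101-base paired reads.

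The RPKM values are whole multiples of the worth of 1 read in 100% of 24630 genes (largest distance from a whole number 0.000252, with 0.03 allowed), so reads were recovered. Small values that stood in place of zero reads in the deposited table were set to 0, and RPKM was rescaled to library totals. Old was tested against young with limma 3.58.1 (R 4.3.3, trend, Benjamini-Hochberg, threshold 0.05) on log2(RPKM + 1), over genes with a mean of at least 5 deposited RPKM. The fold change of low genes is understated on this scale. Fold changes of genes under the filter come from the same model over all 23461 genes with a read. The model was tested on simulated data. Coordinates are from GENCODE M21 (GRCm38) and promoter windows from RefSeq (GRCm38.p6). The length behind the RPKM differed from the annotated merged exons for Cyp26a1 (1773 against 1983 bases), Rarb and Rarg.

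The 9 genes and all lists were chosen with earlier results of these data known. Named genes are the 9, the pathway genes past the threshold together with those of synthesis, degradation, binding and reception, the 10 genes most like Cyp26a1 and the genes within 500 kb of it. For marker sums of 9 cell types, all 70 assignments of the libraries to ages were enumerated (exact permutation test, two-sided). Fit alternatives were another scaling, pseudocount, filter, test, depth and set of libraries. ERCC spike-ins are not analysed here.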

Additional observations from a re-analysis of the deposited data

Results flagged for a closer look

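A sample stood far from the other 3 of its group in 4 of the 68 groups examined, where chance flags about 1 in 20. Rdh5 was low in young library 2, with 5.96 RPKM against 7.60 to 7.80 RPKM in the other young libraries. Aldh8a1 was high in old library 4, with 0.230 RPKM against 0.182 to 0.189 RPKM. The muscle fibre marker sum was low in young library 3, with 303 CPM against 637 to 665 CPM. The erythroid marker sum was high in old library 3, with 78.1 CPM against 17.7 to 27.9 CPM. No value of the 9 retinoic acid genes was among them.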

How the results depend on the processing

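The log2 fold change of Cyp26a1 stayed within 2.85 (pseudocount 5) and 3.97 (deposited scale) under all alternatives run, and within 2.91 to 3.57 with each library left out in turn. Of 153 recomputed fold changes of the 9 genes, 137 moved by less than the spread between replicates. Those with a block for the replicate number are among them by construction, since such a block cannot change fold changes in groups of equal size. In 5 the sign changed. These 5 were Rdh10 (0.04), Dhrs3 (0.16), Rarb (0.09), Rarg (0.20) and Rxra (0.16), all on the deposited scale, which shifts all genes of old libraries up relative to young.

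On the deposited scale 3882 genes were higher and 64 lower, and in the retinoid list 13 and 0. With a mean of at least 1 RPKM there, chosen after seeing the data, 4668 were higher. On library totals, 2280 genes were lower with the filter at 1 RPKM, 384 with it at 10 RPKM and 9423 with none. Without young libraries 1 and 2, 453 genes were higher. Of the retinoid list, 1 gene was higher at a filter of 10 RPKM, 1 with limma-voom on recovered reads, 1 with thinned reads, 0 without young libraries 1 and 2, and 4 higher and 27 lower without a filter. The cause was not tested. With each library left out in turn, 475 to 795 genes were higher and 476 to 802 lower, with 1 to 4 and 3 to 4 of the list.

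Old and young replicate numbers did not pair the samples, with correlations of deviations of -0.16, -0.06, 0.38 and -0.23 for numbers 1 to 4, and library 3 alone correlated best with its own number. A replicate block left 1 retinoid gene higher and 4 lower, 635 genes higher and 656 lower in all.

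Young libraries with 1.91 to 6.56 M reads limit what can be said near 1 RPKM, where 3 reads in a gene of 1 kb are worth 0.458 to 1.57 RPKM, against 0.121 to 0.149 RPKM in old libraries.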

Other observations

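None of the marker sums of 9 cell types passed after adjustment over the lists (exact permutation test over 70 assignments, two-sided), and with a smallest possible p of 0.0286 a single list cannot pass. The tenocyte sum averaged 3360 CPM in old and 900 CPM in young animals, a ratio of 3.74 (exact p = 0.0286, adjusted p = 0.257), higher in 4 of 4 old libraries. As the lists were chosen with earlier results of these data known, this p is a description and no independent support. The endothelial sum averaged 191 CPM in old and 346 CPM in young animals (exact p = 0.0571, adjusted p = 0.257). The sums of fibro-adipogenic cells (5850 CPM in old and 5970 CPM in young), leukocytes (119 and 220 CPM in old and young), pericytes and smooth muscle (750 and 969 CPM), Schwann cells (136 CPM in both), muscle fibres (387 and 565 CPM) and erythroid cells (36.3 and 34.4 CPM) had exact p-values of 0.143 to 1.00. That of muscle stem cells had 0.400.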
